A study of Mus musculus with 20 samples.

Results

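The extracellular matrix genes described here are 31 collagen chains, 9 laminin chains, 13 matrix metalloproteinases (Mmp), 3 tissue inhibitors of metalloproteinases (Timp) and 8 further genes, namely Fn1, Lox, Sparc, Dcn, Bgn, Lum, Eln and Hspg2. They were chosen by a rule on gene symbols, with earlier results of these data known. They number 64 of the 8251 genes that the arrays measure through a probe set with a single symbol. The 64 genes have 91 probe sets, 22 of them several and 42 only 1. Each gene is represented by its probe set with the highest mean over all 20 arrays. Fbn1 is also named in the rule, but no probe set carries it as its single symbol, so it was not analysed here.

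Expression was measured on short-oligonucleotide arrays, 1 RNA sample per array, in mice exposed to conditions that model parts of sleep apnea. Of 20 arrays, 8 hold subcutaneous adipose tissue of 12-week-old mice in 4 groups of 2, titled Glucose with hypoxia, Glucose without hypoxia, Con with hypoxia and Con without hypoxia. The adipose labels name the strains C57BL-6J and C57BL-6J-Lep, the second with a Lep mutation, without saying which array came from which, and they do not explain Con and Glucose. Hypoxic mice had oxygen lowered to 5% over 30 s, against 20.9% in air, and restored to 20% over a further 30 s, in daily sessions of 16 hours over 5 days. Mice without hypoxia received intermittent room air on the same schedule. The remaining 12 arrays hold brain, heart, lung and skeletal muscle of 20-week-old C57BL-6J mice, 1 array per tissue after sleep fragmentation, after hypoxia whose schedule is not described, or under control conditions. The labels do not say whether arrays of a group came from separate animals or pools, so p-values measure only the spread between arrays.

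The extracellular matrix is the protein scaffold around cells. Fibrillar collagens form the tensile fibres of connective tissue, and collagen IV, laminins and perlecan (Hspg2) form the basement membranes that line blood vessels, muscle fibres and adipocytes. Lysyl oxidase (Lox) crosslinks collagen and elastin, metalloproteinases cleave matrix proteins, and Timps inhibit them. In fat, every adipocyte sits in a basement membrane, and the matrix is rebuilt when the tissue grows or shrinks. In lung, elastin and collagen carry the stretch of breathing. The healthy brain holds little fibrillar collagen outside its vessels and meninges.

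Levels below are log2 intensities, and a difference of 1 on that scale is a factor of 2. In adipose tissue 40 of the 64 genes passed a filter on low signal and were tested, and in the other tissues 43 did. Of all 64, 36 were tested in both data sets and 17 in neither. A gene that passed through the tissue where it is high had to differ there, so the counts below describe the tested genes only. The whole-array controls differed among arrays. For Actb, signal at the 3′ probe set over that at the 5′ one was 1.70 on Con hypoxia array 1 against 0.756 to 1.37 on the other 7 adipose arrays, and it lay between 0.0288 and 0.0635 on the lung arrays and at 0.0343 on the brain hypoxia array, against 0.662 to 1.52 on the other 8. The same ratio for Gapdh was 0.264, 0.00899 and 0.0261 in muscle after fragmentation, after hypoxia and in control, 0.136 and 0.443 in heart after hypoxia and in control, and at least 0.802 on the other 15 arrays. The brain hypoxia array had a median deposited intensity of 1475, against 349 to 411 on the other 11, before normalization. Tissue identity followed the labels for most defining genes of brain, heart and muscle. At the threshold given below, 5 of 5 brain markers were higher in brain and 5 of 5 heart markers in heart. Of 10 skeletal muscle markers 7 were higher and 1 lower in muscle, and of 4 lung markers 2 were higher and 1 lower in lung. The heart list (Myh6, Nppa, Tnni3, Tnnt2, Myl7) averaged 11.11 to 11.71 on the lung arrays, against 12.8 to 13.5 on the heart arrays and 7.76 to 8.30 in brain and muscle. The lung list, of which 4 genes were measured, averaged 12.2, 10.2 and 10.4 in lung after fragmentation, after hypoxia and in control, and was 10.03 on the brain control array, against 8.38 to 9.49 on the other 8 arrays of these tissues. The skeletal muscle list was 10.19 on the brain control array, against 8.54 and 9.34 on the other brain arrays. All adipose arrays carried the skeletal muscle list, with mean levels of 9.19 to 13.4 in Glucose and 12.1 to 14.2 in Con arrays. In whole tissue, fewer cells of a type and less RNA per cell cannot be told apart.

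In adipose tissue the Glucose and Con arrays differed in 4 matrix genes. Lox, Mmp12 and Col18a1 were higher in Glucose and Lama1 was lower, at an adjusted p of 0.05 in limma, a moderated linear model with Benjamini-Hochberg adjustment over all 7453 probe sets tested. These are 4 of 40 members tested (10%), where 7.59% of all probe sets tested were called, 4.04% higher and 3.56% lower. Differences had both signs, 21 positive and 19 negative. The median difference over the members was 0.05, against 0.04 over all probe sets tested. Levels of all 4 Glucose arrays lay above all 4 Con arrays for 5 members, Lox, Mmp12, Col18a1, Col15a1 and Col4a2, which is 12.5% against 11.4% of all probe sets. They lay below for 3, Lama1, Mmp14 and Mmp3, which is 7.5% against 8.33%.

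**Figure D1:**
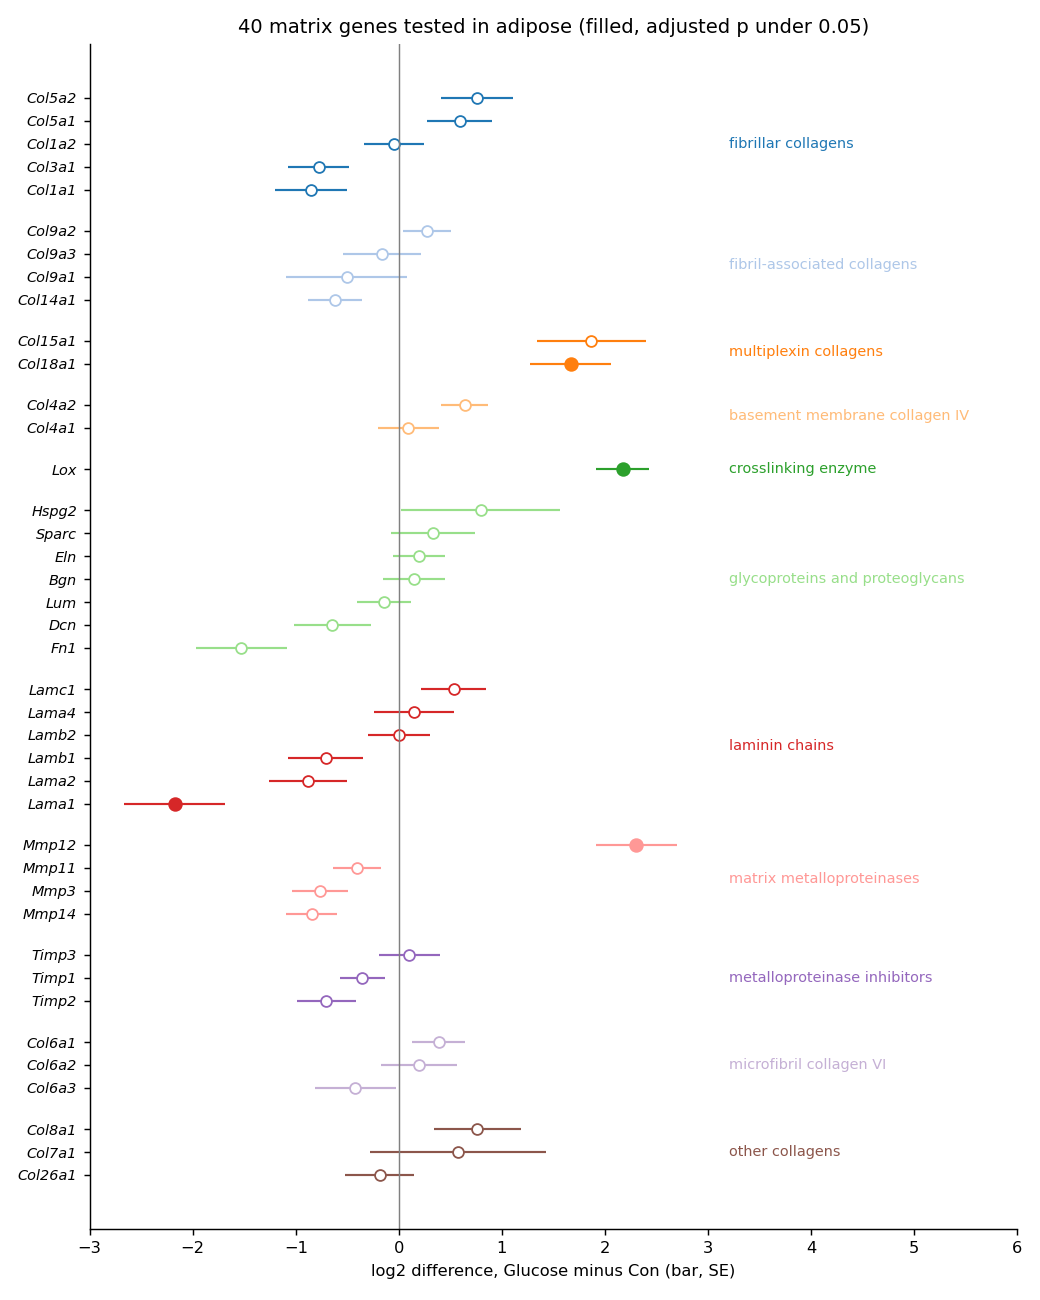
Log2 difference, Glucose minus Con, with its standard error (bars) for the 40 matrix genes tested in adipose tissue, grouped by role along the vertical axis, filled where the adjusted p is under 0.05. Lox, Mmp12 and Col18a1 lie furthest right of the filled points and Lama1 furthest left, while most other members lie within 1 of 0.

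Lox, the enzyme that starts collagen and elastin crosslinks, gave the lowest p of the members. Its level was 11.73 and 12.30 in Glucose hypoxia, 12.00 and 11.71 in Glucose room air, 9.41 and 9.94 in Con hypoxia and 9.85 and 9.84 in Con room air. The Glucose arrays were thus all well above the Con arrays, with no overlap. The difference was 2.17 ± 0.26 (SE, 4 arrays against 4), a 4.51-fold higher level, with an adjusted p of 0.00301 in limma. The second Lox probe set gave 3.57 (adjusted p 0.00727), with the Con arrays spread from 7.08 on Con hypoxia array 1 to 9.47 on Con hypoxia array 2. Lox passed in all 8 fits that left out 1 array (adjusted p 0.00963 to 0.0184). It missed the threshold in fits of the 4 arrays titled s2 or the 4 titled s4 alone or without both Con arrays numbered 1 (adjusted p 0.0599 to 0.123), where the difference was still 2.04 to 2.24.

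Other genes that make and crosslink collagen did not share this difference. Of 11 tested genes for hydroxylation, chaperoning, propeptide removal and crosslinking, among them Plod3 (0.98), Serpinh1 (0.14) and Bmp1 (0.32), 0 passed in limma in either direction. Their median difference was 0.14. The fibrillar collagens also gave no call, with 0 of 5 tested passing, 2 positive and 3 negative. Col1a1 and Col3a1, the main chains of collagens I and III, had lower means in Glucose. Col1a1 was 11.94, 12.12, 11.92 and 11.93 in Glucose arrays, against 11.59, 13.09, 13.46 and 13.18 in Con arrays. Con hypoxia array 1 therefore lay below every Glucose array, and the other 3 Con arrays lay above them. The difference was -0.85 ± 0.35 (adjusted p 0.19 in limma). Without Con hypoxia array 1 it was -1.22, with an adjusted p of 0.0482. Over all 8 arrays the second Col1a1 probe set gave -0.30 (adjusted p 0.652). Col3a1 differed by -0.78 ± 0.30 (adjusted p 0.167). Its other probe sets gave -0.39 (adjusted p 0.621) and -0.30 (adjusted p 0.772). Col5a1 and Col5a2, chains of the minor fibrillar collagen V, differed by 0.59 (adjusted p 0.309) and 0.76 (adjusted p 0.237). For Col1a2 the probe sets disagree. The one with the higher mean gave -0.05 and the other -1.34 (adjusted p 0.0605), so no statement on Col1a2 is made for adipose tissue.

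The multiplexins, collagens XV and XVIII of the basement membrane zone, were the collagens with the widest differences. Col18a1, whose C-terminal fragment is endostatin, had levels of 11.79, 11.69, 11.37 and 11.01 in Glucose arrays and 8.72, 10.43, 9.77 and 10.27 in Con arrays. Groups did not overlap, and Con hypoxia array 1 was again the lowest. The difference was 1.67 ± 0.39, or 3.17-fold, with an adjusted p of 0.0458. Of its 5 probe sets 3 were tested, and the others gave 2.26 (adjusted p 0.127) and 1.40 (adjusted p 0.0425). The call held without Con hypoxia array 2 and was lost without any 1 of the other 7 arrays (adjusted p 0.0669 to 0.142, difference 1.24 to 1.79). It was also lost with the s code as a block (0.0702), with a lower floor (0.0584) with no filter (0.171), and in the s2 (0.192) or s4 (0.135) arrays alone. Col15a1 was 12.56, 11.32, 12.06 and 10.90 in Glucose arrays against 9.09, 10.62, 9.13 and 10.53 in Con arrays, with no overlap. Its difference of 1.87 ± 0.53 did not pass (adjusted p 0.0839).

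Collagen IV, the network collagen of basement membranes, showed smaller differences. Col4a2 was 13.48, 13.78, 13.24 and 13.32 in Glucose arrays and 12.76, 12.98, 12.57 and 12.95 in Con arrays, a difference of 0.64 ± 0.23 (adjusted p 0.143). Its partner Col4a1 averaged 13.64 ± 0.41 in Glucose and 13.55 ± 0.32 in Con arrays (SD, n = 4 each), a difference of 0.09 that changed sign in 3 of the 8 leave-one-out fits. Col6a1, a chain of the microfibril collagen VI, differed by 0.39 (adjusted p 0.411), and 0 of 3 collagen VI chains passed. Col8a1 of vessel walls differed by 0.76 (adjusted p 0.321).

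Among laminins, the cross-shaped trimers of basement membranes, 1 of 6 tested chains passed. Lama1, an α chain prominent in embryonic basement membranes, was at the floor of 6.61 on 3 Glucose arrays and 8.71 on Glucose hypoxia array 2, against 10.01, 8.83, 9.32 and 9.09 on Con arrays. The difference was -2.18 ± 0.49, 4.52-fold lower in Glucose (adjusted p 0.0402). Its size depends on the floor, being -2.81 with a lower floor and -1.26 (adjusted p 0.0516) with a higher one. The call held without Glucose hypoxia array 2 (-2.70) and was lost without any 1 of the other 7 arrays (adjusted p 0.0583 to 0.127). It was also lost with the s code as a block (0.0610), with no filter (0.174) and in the s2 arrays alone (0.416). Lama2, the α chain of the muscle basement membrane, differed by -0.88 ± 0.38 (adjusted p 0.213). Lamb2 differed by 0.00.

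Of the glycoproteins and proteoglycans, 0 of 7 tested passed. Fn1, the fibronectin that cells grip through integrins, had levels of 11.11, 10.58, 11.39 and 10.97 in Glucose arrays. Con arrays held 11.05, 13.07, 12.91 and 13.13. Con hypoxia array 1 thus lay among the Glucose arrays and below the other 3 Con arrays. The difference was -1.53 ± 0.44 with an adjusted p of 0.0888 in limma, and without Con hypoxia array 1 it was -2.03 with an adjusted p of 0.0177. Sparc, a collagen-binding glycoprotein, differed by 0.33 (adjusted p 0.679) and Eln, elastin, by 0.20 (adjusted p 0.692). The small proteoglycan Dcn differed by -0.65 (adjusted p 0.346).

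**Figure D2:**
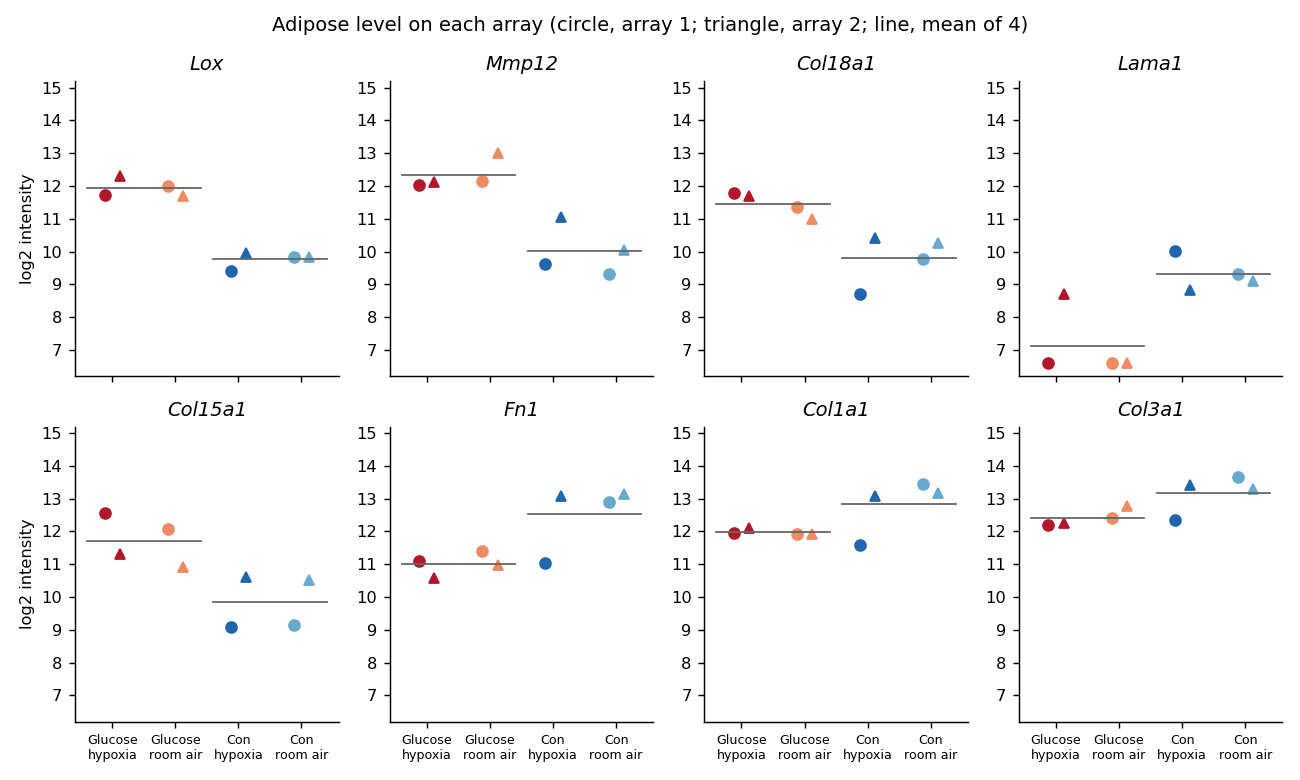
Log2 intensity of 8 matrix genes on each of the 8 adipose arrays, by group along the horizontal axis (circle, array 1; triangle, array 2), with a line at the mean of the 4 Glucose and of the 4 Con arrays. Lox, Mmp12, Col18a1 and Col15a1 are higher on every Glucose array, while for Fn1 and Col1a1 Con hypoxia array 1 sits apart from the other 3 Con arrays.

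The metalloproteinases were mostly near the floor in adipose tissue, and 4 of 13 were tested. Mmp12, the elastase of macrophages, was the 1 that passed. Its levels were 12.02, 12.12, 12.16 and 13.00 in Glucose arrays, against 9.62, 11.07, 9.33 and 10.06 in Con arrays. Groups were apart, with Con hypoxia array 2 the nearest Con array. The difference was 2.31 ± 0.39, 4.94-fold (adjusted p 0.0145 in limma), and the second probe set gave 2.38 (adjusted p 0.0494). The call was lost without Con room air array 1 (adjusted p 0.0533), Glucose hypoxia array 1 (0.0575) or Glucose hypoxia array 2 (0.0571), with differences of 2.12 to 2.33. It was also lost with no filter (0.0874), in the s2 arrays alone (0.241) and in the s4 arrays alone (0.0599). Macrophage markers did not pass. Of 5 tested, 0 were called, with a median difference of -0.74, and the list averaged 9.50 to 10.5 in Glucose arrays and 9.52 to 10.6 in Con arrays. Mmp3, stromelysin 1, and the membrane-bound Mmp14 had differences of the other sign. Mmp3 was 10.02, 10.21, 9.33 and 9.96 in Glucose arrays and 10.53, 11.01, 10.75 and 10.29 in Con arrays, a difference of -0.77 ± 0.27 (adjusted p 0.138). Mmp14 differed by -0.85 ± 0.25 (adjusted p 0.0935). Of the 3 Timps 0 passed, with -0.35 for Timp1, -0.70 for Timp2 and 0.10 for Timp3.

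Mmp12 and Mmp3 belong to a cluster of Mmp genes on mouse chromosome 9, and their promoters are shown because the 2 genes lay apart in opposite directions. The stretches are the 150 bases before an annotated start, from RefSeq on build GRCm38.p6, plus strand, at chr9:7347224-7347373 for Mmp12 and chr9:7445672-7445821 for Mmp3. Capitals mark matches to TGANTCA, the letters that AP-1 factors are known to bind, which read as the same motif on both strands. RefSeq lists 2 starts for Mmp12, and the stretch before the other holds no match.
Mmp12: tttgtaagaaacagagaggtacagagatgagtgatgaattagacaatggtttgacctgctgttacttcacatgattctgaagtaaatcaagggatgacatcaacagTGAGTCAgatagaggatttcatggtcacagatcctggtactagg
Mmp3: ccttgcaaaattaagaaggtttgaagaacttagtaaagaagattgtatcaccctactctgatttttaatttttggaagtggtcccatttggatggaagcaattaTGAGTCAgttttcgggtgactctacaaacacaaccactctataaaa
The match starts 44 bases before the start of Mmp12 and 46 before that of Mmp3. TGANTCA occurs in 7.81% of all 32817 promoter windows in the table and in 6 of the 48 windows that belong to 42 of the members (12.5%). The letters alone say nothing of whether a factor binds there in fat.

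Con hypoxia array 1 was the lowest of the 4 Con arrays for 26 of 40 matrix genes (65%), whereas it was the lowest for 25.3% of all probe sets tested. Its median distance from the mean of the other 3 Con arrays was -0.54 over the matrix genes and 0.03 over all probe sets tested. Fn1 (11.05 there, at least 12.91 on the others), Col1a1, Col18a1, Col6a2 and Lamb1 lay furthest below. Hspg2 and Lama1 lay furthest above. Con hypoxia array 2 was the highest for 19 of 40 (47.5%, against 28.6% of all probe sets tested). The brown adipocyte list (Ucp1, Cidea, Ppargc1a, Cox8b, Elovl3) averaged 11.2 on Con hypoxia array 1 and 11.3 on Con room air array 1, against 8.24 and 9.13 on the other Con arrays and 7.33 to 8.07 on Glucose arrays. Ucp1, its defining gene, was 12.5 and 13.2 on those 2 arrays. The part of these differences in the matrix results was not tested, beyond the values given without each array. Without both Con arrays numbered 1, Lox, Mmp12, Col18a1 and Lama1 differed by 2.04, 1.76, 1.11 and -1.82, and 0 of the members passed in limma.

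**Figure D3:**
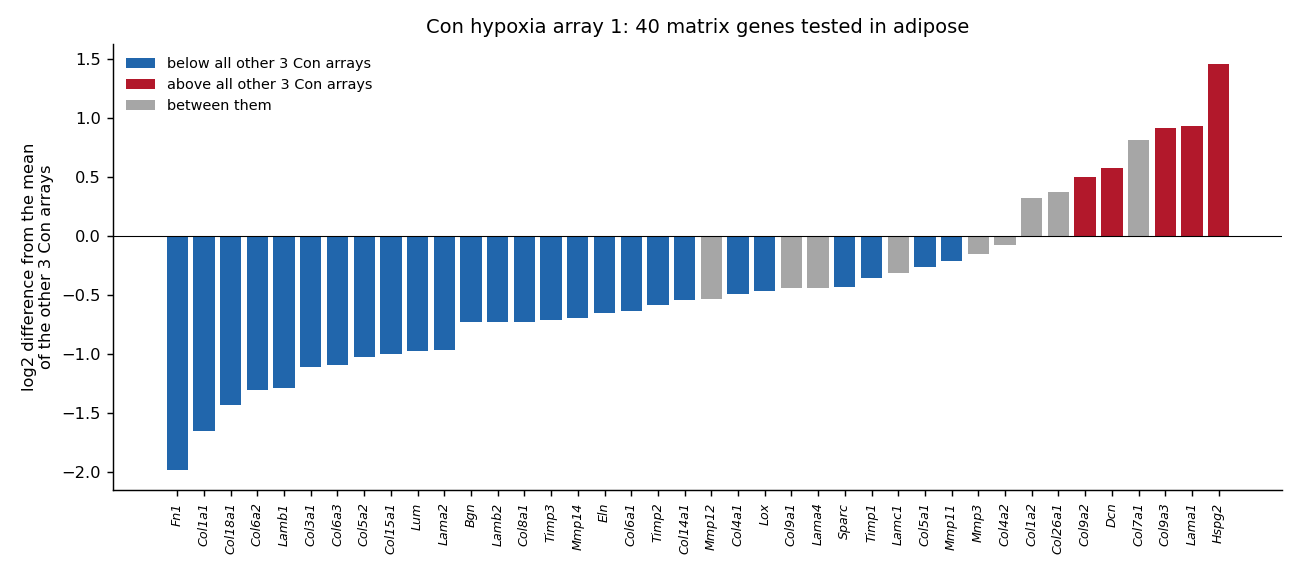
Log2 difference between Con hypoxia array 1 and the mean of the other 3 Con arrays (bars) for the 40 matrix genes tested in adipose tissue, coloured by whether the array lies below all 3, above all 3 or between them. Bars for 26 of 40 genes mark a level below all 3, Fn1 and Col1a1 the furthest, and 5 mark a level above.

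Genes that the matrix proteins work with gave calls of their own, to be read against the 4.04% of all probe sets called higher and the 3.56% called lower. Of 11 tested matrix receptors 3 rose in Glucose, the integrin chains Itga7 (2.13) and Itga6 (1.72), which bind laminin, and the collagen receptor Ddr1 (1.55). Of 15 other matrix glycoproteins tested 2 rose, Matn2 (2.22), a filament-forming matrilin, and Nid2 (1.85), which joins laminin to collagen IV. Of 11 regulators 2 rose, Ccn2 (2.50) and Ccn1 (2.42), matricellular proteins, and 1 fell, the Mmp inhibitor Reck (-1.74), which was at the floor on 3 of 4 Glucose arrays. All these lists were chosen with earlier results of these data known. Fibroblast markers gave 0 calls of 7 tested, with mean levels of 9.87 to 10.2 in Glucose and 9.75 to 10.4 in Con arrays, and endothelial markers 0 of 7, at 9.95 to 10.7 in Glucose and 9.74 to 10.6 in Con arrays. Of smooth muscle markers 1 of 5 passed, Acta2, with a difference of 1.51. Of 5 tested B cell markers 4 fell and of 2 T cell markers 2 fell, the B cell list averaging 7.97 to 8.07 in Glucose and 9.89 to 10.8 in Con arrays, with Cd8b1 at the floor on all 4 Glucose arrays. The part of these cells in the matrix results was not tested.

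Intermittent hypoxia changed no matrix gene detectably in adipose tissue. Of 40 members 0 passed for hypoxia minus room air over all 8 arrays, within Con, within Glucose, or for the difference between the effects in Glucose and Con. Over all probe sets the share called was 0 in each of these comparisons as well, so the counts say nothing particular of the matrix. At an unadjusted p under 0.05 in limma the count was also 0 of 40 in each, where 1.48%, 2.92%, 2.13% and 3.31% of all probe sets fell under it. The median difference over the members was -0.01 for hypoxia over all arrays, -0.18 within Con and 0.10 within Glucose.

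Within Con, 25 of 40 differences were negative and 15 positive. Without Con hypoxia array 1 they were 15 negative and 26 positive of 41 tested, and without Con hypoxia array 2 they were 31 negative and 10 positive. Lum, the proteoglycan lumican, was 10.03 and 10.66 in Con hypoxia against 11.17 and 11.18 in Con room air, a difference of -0.83 ± 0.37. Col1a1 was 11.59 and 13.09 in Con hypoxia and 13.46 and 13.18 in Con room air, a difference of -0.98 ± 0.49. Without Con hypoxia array 1 these were -0.51 for Lum and -0.23 for Col1a1, and without Con hypoxia array 2 they were -1.14 and -1.73. The groups did not overlap for 5 members lower, Lum and Col1a1 among them, and 1 higher, or 12.5% and 2.5% of members, against 10.5% and 15.4% of all probe sets. Fn1 differed by -0.96 ± 0.63, and by 0.05 without Con hypoxia array 1. Hspg2 differed by 1.55 ± 1.09, its Con room air arrays lying at 10.04 and 7.07. Within Glucose the groups were apart for 8 members higher (20%) and 4 lower (10%), against 12% and 12.4% of all probe sets. Lama1 differed by 1.05 ± 0.69, a value that rests on Glucose hypoxia array 2, the 1 Glucose array off the floor, and Mmp11, Mmp3 and Timp3 differed by 0.39, 0.47 and -0.48. All of these had an adjusted p of 1 in limma.

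Each of brain, heart, lung and muscle was tested with its 3 arrays against the other 9. In brain 31 of 43 tested members passed (72.1%), where 49.5% of all probe sets tested were called. Of these 27 were lower in brain (62.8%, against 26% of all probe sets) and 4 higher (9.3%, against 23.5%). The median difference was -1.07 over the members and -0.08 over all probe sets tested. In lung 33 of 43 passed (76.7%, against 62%), 23 higher (53.5%, against 28.1%) and 10 lower (23.3%, against 33.8%), with a median of 0.48 against -0.10. In heart 19 passed (44.2%, against 38.7%), 17 higher (39.5%, against 19.2%) and 2 lower (4.65%, against 19.5%), with a median of 0.45 against 0.00. In muscle 17 passed (39.5%, against 52.5%), 7 higher (16.3%, against 24.9%) and 10 lower (23.3%, against 27.6%), with a median of 0.07 against 0.00. Arrays of a tissue lay wholly below the others for 15 members in brain (34.9%, against 9.2% of all probe sets), 6 in lung (14%, against 14.5%), 2 in muscle (4.65%, against 6.68%) and 0 in heart (against 2.54%). They lay wholly above for 2 in brain (4.65%, against 13.7%), 15 in lung (34.9%, against 16.3%), 5 in heart (11.6%, against 6.24%) and 2 in muscle (4.65%, against 8.75%). Of the 43 members, 9 reached the filter level in 1 tissue alone, Lamb3, Lama3, Col13a1, Col4a5 and Col5a2 in lung, Col15a1, Col14a1 and Col8a1 in heart and Mmp17 in brain, so their differences there are descriptions. Over the other 34, an alternative chosen after seeing the data, 20 were lower in brain (58.8%, against 25.6% of all probe sets above the level in 2 or more tissues), 18 higher in lung (52.9%, against 26.2%), 14 higher in heart (41.2%, against 21.4%) and 7 higher in muscle (20.6%, against 26.4%). Without the brain hypoxia array the brain count was 30. The heart count was the one that moved most when 1 array was left out, at 11 without the heart control array and 12 without the heart hypoxia array. The 3 arrays of a tissue are its 3 conditions, and the 4 contrasts share their arrays.

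**Figure D4:**
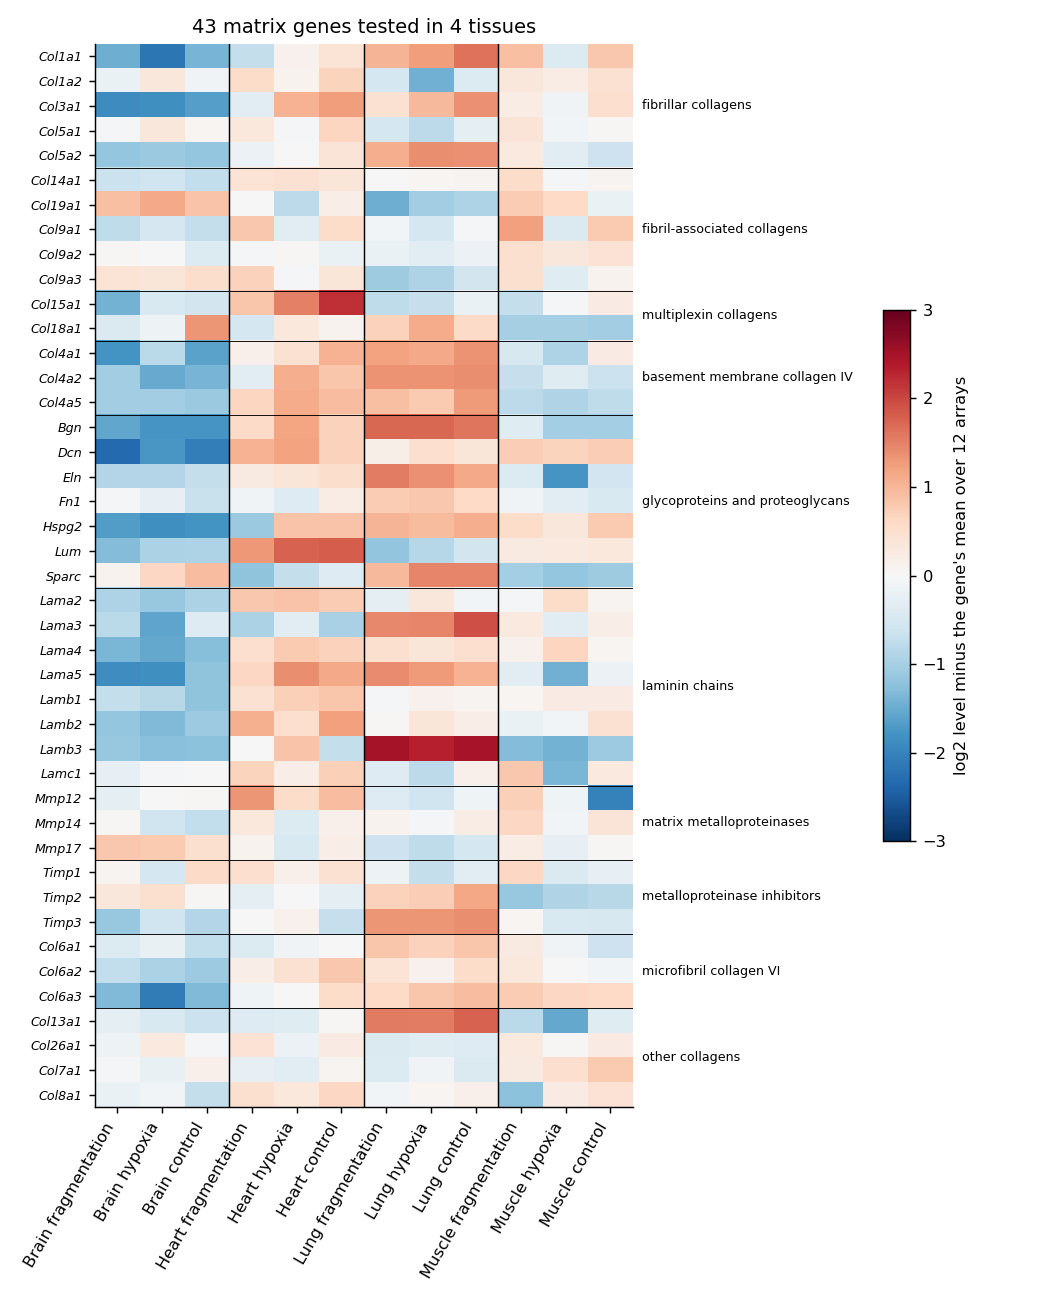
Log2 level of the 43 matrix genes tested in brain, heart, lung and muscle, on each of the 12 arrays along the horizontal axis, as the difference from the gene's mean over the 12 arrays (colour scale), grouped by role. Most rows are blue in brain and red in lung, with Col19a1, Col9a3 and Mmp17 the other way round.

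In brain collagen IV, collagen VI and most laminin chains were lower. Fibrillar collagens had 3 of 5 lower, with Col5a1 (0.15) and Col1a2 (0.01) not passing, collagen IV chains 3 of 3, collagen VI chains 3 of 3, laminins 7 of 8, and glycoproteins and proteoglycans 5 of 7. The second Col1a2 probe set differed by -2.08 in brain (adjusted p 2.79e-05 in limma), so Col1a2 is unsettled there. The second Col5a1 probe set, below the filter, averaged 7.39 in brain, against 8.25 in heart, 9.29 in lung and 7.49 in muscle. Dcn, decorin, which coats collagen fibrils, was 10.17, 10.76 and 10.44 in brain after fragmentation, after hypoxia and in control. The other 9 arrays ran from 12.67 to 13.72 with a median of 13.19, so the tissues were far apart (-2.73 ± 0.15, adjusted p 2.1e-07 in limma). Col3a1 was 8.07, 8.12 and 8.31 in brain, against 9.62 to 11.33 (median 10.46) elsewhere, a difference of -2.39 ± 0.24. Col1a1, Bgn, Hspg2, Col6a3, Lama4 and Col4a2 lay below all other tissues by -2.24, -2.27, -2.35, -2.11, -1.86 and -1.76. The second probe sets of Col1a1 and Bgn gave -0.87 and -1.41.

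Markers of the cells that make matrix were low in brain too. The fibroblast list averaged 8.47 in brain, against 9.61 in heart, 9.63 in lung and 9.22 in muscle, with 4 of 6 tested markers lower in brain. The endothelial list averaged 8.61 in brain, against 10.3, 11.1 and 9.36, with 6 of 7 lower. Their part in the matrix result was not tested.

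4 members went the other way in brain. Col19a1, a fibril-associated collagen found at synapses in mouse brain, was 9.94, 10.15 and 9.88 in brain, against 7.55 to 9.77 (median 8.83) elsewhere (1.28 ± 0.26, adjusted p 0.00195). Mmp17, a membrane-anchored metalloproteinase, was 9.65, 9.61 and 9.32 in brain, against 8.06 to 9.05 (median 8.58) elsewhere (0.93 ± 0.15). Mmp17 reached the filter level in brain alone, so this difference is a description. Sparc, secreted by glia and endothelium, was 11.46, 11.98 and 12.29 in brain, against 10.15 to 12.82 elsewhere, the lung arrays being higher still (0.74 ± 0.16). Col9a3 was higher by 0.58 ± 0.18.

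In lung most tested members lay above the mean of the other tissues. Lamb3 and Lama3, chains of the laminin that anchors epithelium, were among those with no overlap. Lamb3 was 11.24, 11.07 and 11.23 in lung, against 7.33 to 9.60 (median 7.62) elsewhere, a difference of 3.24 ± 0.25 or 9.47-fold, and its second probe set gave 1.64. Lama3 was 10.15, 10.19 and 10.64 in lung, against a median of 8.33 elsewhere and with no overlap (2.15 ± 0.24). Both were at or within 0.01 of the floor on all 8 adipose arrays. Col13a1, a transmembrane collagen, was higher by 2.16 ± 0.19, its 3 lung arrays at 10.51, 10.48 and 10.74 against at most 8.99 elsewhere. Lamb3, Lama3 and Col13a1 reached the filter level in lung alone, so their differences there are descriptions.

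Of the 7 glycoproteins and proteoglycans 6 were higher in lung, and of the 5 fibrillar collagens 3 were higher and 2 lower. Eln was 12.88, 12.70 and 12.48 in lung, against 9.57 to 11.86 (median 10.77) elsewhere (1.80 ± 0.23). Timp3, the inhibitor that binds to matrix, was 13.24, 13.23 and 13.31, against 10.78 to 12.05 (median 11.43) elsewhere (1.79 ± 0.19). Bgn, biglycan, was higher by 2.24 and Col6a1 by 1.05, both with lung arrays above all others. Col1a1 was higher by 1.74 ± 0.27, but its second probe set gave 0.13 (adjusted p 0.575). For Col1a2 the probe sets point in opposite directions, -1.06 and 1.07, so its direction in lung is unsettled. Lower in lung, with no overlap, were Col19a1 (-1.53), Col9a3 (-1.12), Mmp17 (-0.85), Col5a1 (-0.72) and Col26a1 (-0.52). The second Col5a1 probe set, below the filter, averaged 9.29 in lung, against 7.39 in brain, 8.25 in heart and 7.49 in muscle. The direction of Col5a1 in lung is therefore unsettled too. The Col26a1 call was lost without the lung control array (-0.51, adjusted p 0.0673) or the lung fragmentation array (-0.47, adjusted p 0.0912). The lung arrays also carried heart genes, as given above, and the part of these genes in the lung values was not tested. Endothelial markers were higher in lung in 6 of 7 tested (median 2.03), fibroblast markers in 5 of 6 (0.80) and smooth muscle markers in 4 of 5 (1.75), and their part was not tested either.

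Col4a1 and Col4a2 are transcribed head to head from a shared stretch on mouse chromosome 8. It is shown because, among brain, heart, lung and muscle, both genes had their highest levels in lung. Their RefSeq starts lie 21 bases apart, at 11312826 for Col4a1 on the minus strand and 11312805 for Col4a2 on the plus strand. The annotated transcripts therefore overlap. The line gives chr8:11312755-11312854 of build GRCm38.p6, plus strand, the strand of Col4a2. Capitals mark CCAAT and GGGCGG, on either strand, letters bound by NF-Y and by Sp1 factors.
Col4a1-Col4a2: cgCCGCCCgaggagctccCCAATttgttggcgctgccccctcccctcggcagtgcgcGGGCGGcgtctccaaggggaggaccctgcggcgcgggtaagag
CCAAT starts 32 bases before the start of Col4a2. A GGGCGG on the other strand lies 48 bases before that start, and the one on the same strand begins at base 8 of Col4a2. All of these matches lie past the Col4a1 start, within its annotated transcript. CCAAT occurs in 37.4% and GGGCGG in 35.6% of all promoter windows in the table, so neither is rare, and among the 48 windows of members they occur in 33.3% and 50%. Col4a1 was 12.73, 12.67 and 12.89 in lung, 11.68, 11.98 and 12.57 in heart, 11.05, 10.62 and 11.78 in muscle and 9.75, 10.72 and 9.94 in brain after fragmentation, after hypoxia and in control. Col4a2 was 12.87, 12.86 and 12.92 in lung, 11.18, 12.61 and 12.35 in heart, 10.83, 11.16 and 10.89 in muscle and 10.48, 10.02 and 10.12 in brain. Lung lay above all arrays of brain, heart and muscle for both genes. Brain lay below all others for Col4a2 and overlapped muscle for Col4a1, while heart and muscle overlap for Col4a1 and not for Col4a2. The lung differences were 1.64 ± 0.25 for Col4a1 and 1.81 ± 0.25 for Col4a2.

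**Figure D5:**
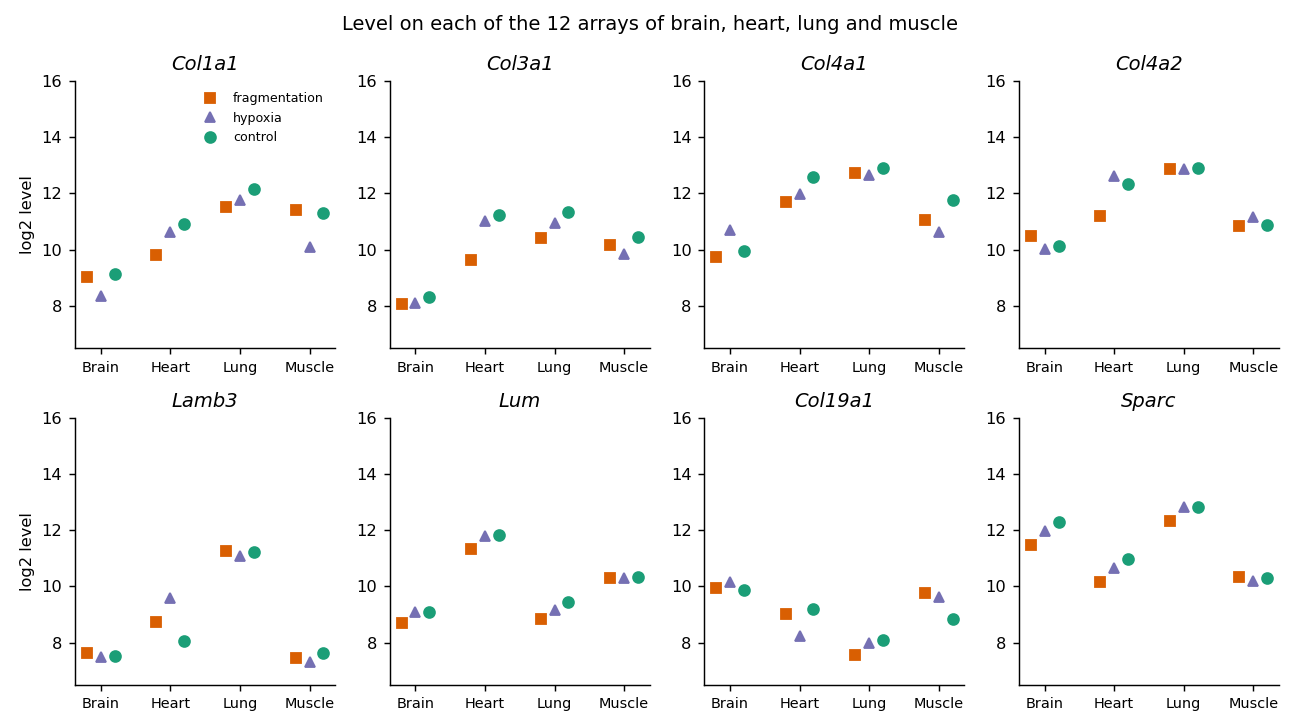
Log2 level of 8 matrix genes on each of the 12 arrays, by tissue along the horizontal axis and by condition (square, fragmentation; triangle, hypoxia; circle, control). Lamb3 stands out in lung, Lum in heart and Col19a1 in brain, and Sparc is high in both brain and lung.

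In heart 5 of 8 tested laminins were higher, as were 3 of 7 glycoproteins and proteoglycans. Lum was 11.32, 11.78 and 11.83 in heart, against 8.71 to 10.32 (median 9.15) elsewhere (2.18 ± 0.13, adjusted p 2.06e-06). Col15a1, which anchors capillaries and muscle fibres to the surrounding collagen, was 10.25, 10.93 and 11.60, against 7.98 to 9.66 (median 8.87) elsewhere (2.03 ± 0.17). Col15a1 reached the filter level in heart alone, so this difference is a description. Lamb2, Lama2 and Lamb1, chains of muscle and vessel laminins, lay above all other tissues by 1.24, 1.08 and 0.89. Collagen IV chains were higher in 3 of 3. Sparc (-1.02) and Lama3 (-0.99) were the 2 lower members.

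In muscle 2 members lay above and 2 below all other arrays. Col7a1, the anchoring fibril collagen, was 10.11, 10.35 and 10.63, against 9.39 to 9.98 elsewhere (0.70 ± 0.15), and Col9a2, a fibril-associated collagen of cartilage, differed by 0.55 ± 0.13. Col18a1 was 8.74, 8.73 and 8.69 in muscle, against 9.20 to 11.04 elsewhere (-1.34 ± 0.29). Its other probe sets were below the filter. Of these, 1 averaged 8.58 in muscle and in heart, 8.33 in lung and 7.98 in brain, and the rest were lowest in muscle. Timp2, which also helps to activate Mmp2, was 9.46, 9.69 and 9.75, against 10.29 to 11.75 elsewhere (-1.27 ± 0.16). Its other probe sets, below the filter, averaged 7.87 and 7.19 in muscle, 7.72 and 7.70 in brain, 7.36 and 7.95 in heart and 7.36 and 7.20 in lung.

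Sleep fragmentation and hypoxia gave no call among matrix genes over the 4 tissues. Of 43 members 0 passed for fragmentation minus control, hypoxia minus control or hypoxia minus fragmentation, and 0 of all probe sets passed in limma as well. At an unadjusted p under 0.05 the counts were 4, 4 and 5 of 43 (9.3%, 9.3% and 11.6%), where 4.49%, 5.02% and 10.1% of all probe sets fell under it. For fragmentation the lowest p was that of Col15a1, which was lower in every tissue. It was 7.98 in brain, 10.25 in heart, 8.65 in lung and 8.70 in muscle after fragmentation, against 8.87, 11.60, 9.20 and 9.66 in control. The difference was -0.94 ± 0.18 with an unadjusted limma p of 0.000341 and an adjusted p of 0.967. Col3a1 (-0.76) and Sparc (-0.52) had lower means, and Mmp12 (0.65), Mmp14 (0.26) and Bgn (0.22) higher ones. Mmp12 was -0.049 without muscle, and Bgn was -0.24 with its second probe set.

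After hypoxia Lamc1, the common laminin γ chain, had a mean lower by 0.81 ± 0.31, Col1a1 one lower by 0.66 ± 0.29 and Timp1 one lower by 0.50 ± 0.20, all with an adjusted p of 0.906. Between the stresses, hypoxia minus fragmentation was -0.76 for Col9a1, -0.65 for Timp1, -0.55 for Mmp14 and 0.59 for Col15a1, all with an adjusted p of 0.464. Both comparisons with control share the control arrays.

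Within single tissues there is 1 array per condition and so no test. Differences of 2-fold or more, in both directions together, numbered 21 over the 43 members, 4 tissues and 2 stresses. Over all probe sets the share was 0.711% to 4.08% in a given tissue, stress and direction. Such a share covers 1 direction in 1 comparison, so the total of 21 cannot be read against it. Muscle after hypoxia held 7 lower members, where 3.98% of all probe sets tested were that much lower. They were Lamc1 (9.71 after hypoxia, 11.39 in control), Lama5, Col9a1, Col1a1, Eln, Col13a1 and Col4a1. Muscle hypoxia was also the array with the lowest Gapdh 3′ over 5′ ratio (0.00899), whose part in these values was not tested. Heart after fragmentation held 5, against 1.99% of all probe sets, namely Hspg2 (8.85 after fragmentation, 10.82 in control), Col3a1 (9.62 and 11.22), Col15a1, Col4a2 and Col1a1. Brain Col18a1 was 9.29 after fragmentation and 9.56 after hypoxia, against 11.04 in control, the brain array on which the lung and skeletal muscle lists were high, and their part was not tested. Muscle Mmp12 was 10.21 after fragmentation and 9.37 after hypoxia, against 7.48 in control. Its second probe set did not share this, at 8.54 after fragmentation, 8.06 after hypoxia and 8.54 in control. With single arrays these values cannot be told from variation between arrays.

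The members not tested were low. In adipose tissue 24 genes missed the filter, and 10 of them sat at the floor on all 8 arrays, Col13a1, Col22a1, Col4a3, Lama3, Mmp2, Mmp7, Mmp8, Mmp10, Mmp16 and Mmp24. Mmp2, gelatinase A, is thus without a measured level in adipose tissue through either of its 2 probe sets, and in the other tissues its level lay between 7.44 and 9.01. Mmp9, gelatinase B, through its brighter probe set was off the floor on 3 adipose arrays, all Con, at 8.13, 9.36 and 6.87. In the 12 other arrays 21 genes missed the filter. Lox, Lama1, Mmp3 and Mmp11 were tested in adipose tissue alone through the probe set that represents them. That of Lox ran from 7.15 to 9.47 across the other tissues. It was highest in muscle, at 9.47, 9.05 and 9.12 after fragmentation, after hypoxia and in control. The second Lox probe set was above the filter there, through lung, and was 9.46, 9.47 and 9.28 in lung after fragmentation, after hypoxia and in control, against 6.90 to 8.21 elsewhere (1.91 ± 0.17). It differed by -1.34 in brain, given as a description. The 2 probe sets thus disagree on the tissue with the highest Lox level.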

How the data were processed

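The deposited table holds 1 intensity per probe set and array, on a linear scale, as the authors processed it. The summarisation and scaling methods are not given in the sources used here. Of 12488 probe sets, 66 platform controls were removed, and of the 12422 left the platform annotation gives 10833 a single symbol, 396 several and 1193 none. Probe sets with several or no symbols stayed in the tests but are not named. In adipose tissue values under 97.9, percentile 20 of all positive values, were set to it before log2, which gives the floor of 6.61. For the other tissues 97.9 was added and the 12 arrays were quantile normalized after log2. Probe sets above percentile 40 of mean level (in adipose tissue) or of highest tissue mean (elsewhere) were tested, 7453 in each set, with limma 3.58.1 in R 4.3.3 (lmFit, eBayes, two-sided), fitting 4 adipose groups (4 residual degrees of freedom) or tissue and condition (6), at a Benjamini-Hochberg adjusted p of 0.05. The number of arrays limits the precision. The script was tested on simulated data.

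Named genes are, for Glucose minus Con, members past the threshold and the next 5 per direction by p; for other adipose and stress contrasts, 3 per direction by p; for tissues, up to 8 per direction past the threshold without overlap; a list of well-known members; and up to 4 called genes of each other list. Further members, those in single tissues and the list genes named for tissues were chosen after their values were seen. Alternatives were other offsets, scalings, filters and probe sets, blocks, and each array left out. Members and gene lists were chosen with earlier results of these data known. Promoter sequences are from RefSeq tables on GRCm38.p6, and 42 of 64 members matched. Motifs were searched on both strands.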

Additional observations from a re-analysis of the deposited data

Results flagged for a closer look

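In the 4 Glucose and 4 Con adipose arrays, 80 groups of 4 values were examined for a lowest or highest array far from the rest by Dixon's ratio, and 7 were marked, where chance marks about 1 in 20. Con hypoxia array 1 was low for Fn1 (11.05) and for Mmp14 (10.99), and Con room air array 2 was high for Col5a1 (11.86). Glucose hypoxia array 2 was high for Lama1 (8.71, the other 3 at the floor) and for Col1a1 (12.12, the others between 11.92 and 11.94). Glucose room air array 2 was high for Mmp12 (13.00) and low for Col26a1 (7.68).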

How the results depend on the processing

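Hypoxia and stress comparisons gave 0 members under every alternative run, and the brain, lung and muscle counts stayed within 1.5 times of those reported. So did all 4 tissue counts over the 34 members above the level in 2 or more tissues, chosen after seeing the data, at 23 in brain, 15 in heart, 26 in lung and 14 in muscle. The heart count of 19 ranged from 11 to 21 when 1 array was left out, with 11 without the heart control array and 12 without the heart hypoxia array. The Glucose minus Con count of 4 was 1 with no filter, 2 with the replicate number as a block (Col18a1 at an adjusted p of 0.0568 and Lama1 at 0.0632 no longer passing), 2 with the s code of the titles as a block, 0 in the s2 arrays alone, 1 in the s4 arrays alone, 0 without both Con arrays numbered 1, and 1 to 4 with 1 array left out. The filter and the smaller fits change how many probe sets or arrays enter, and the cause of the other changes was not tested. Same-numbered arrays deviated together within Glucose (correlation 0.41) and within Con (0.18) but not across them (-0.14 to -0.05), so the numbers were not taken to pair arrays. Small differences changed sign: Eln to -0.023 and Timp3 to -0.017 in the s2 arrays, Col4a1 to -0.27 and Sparc to -0.080 in the s4 arrays, Col4a1 to -0.11 and Timp3 to -0.26 without both Con arrays numbered 1, and Eln to -0.032 with its second probe set. With 1 array left out, Col4a1 ran from -0.10 to 0.29, Col1a2 from -0.26 to 0.17, Sparc from -0.048 to 0.72 and Timp3 from -0.17 to 0.37. Within Con, Fn1 ran from -1.96 to 0.052 and Mmp12 from -0.078 to 1.37, with -0.53 for the second Mmp12 probe set, and the Timp3 difference of hypoxia effects ran from -1.06 to 0.040. For fragmentation Mmp12 was -0.049 without muscle and Bgn -0.24 with its second probe set, and in lung Col1a2 was 1.07 with its second probe set. Scaled by the median, muscle had a median difference over all probe sets of -0.14 for fragmentation and -0.11 for hypoxia, against -0.01 and 0.00 with quantiles, and 7 members 2-fold lower after hypoxia under either.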

Other observations

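Beyond the collagens and laminins, genes that process and bind matrix also differed between tissues. In brain 9 of 11 tested genes for collagen assembly and crosslinking were lower, among them the collagen chaperone Serpinh1 (-2.31, adjusted p 6.76e-06 in limma) and the procollagen enhancer Pcolce (-1.55), and 0 were higher. Of 13 other matrix glycoproteins 8 were lower in brain, led by Ogn (-2.83) and Postn (-2.39), and vitronectin (Vtn) was the 1 higher (1.72). Matrix receptors divided, with 7 of 13 lower in brain, including Itgb1 (-1.35) and Dag1 (-1.52), and 3 higher, Itgb4 (0.98), Ddr1 (0.91) and Itgav (0.40).

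In lung 9 of 13 matrix receptors were higher, as were 8 of 13 other glycoproteins, with Postn at 3.01 and Matn4 at 2.57, and 8 of 10 regulators, with Tgfb1 at 2.35 and Ccn2 at 2.21. Lower in lung were 1 of these receptors, 3 of the glycoproteins and 1 of the regulators. In heart 5 of 11 assembly genes were higher, Serpinh1 by 1.54, and 6 of 13 glycoproteins, Thbs2 by 1.72. Lower in heart were 1 assembly gene and 2 glycoproteins, and of 13 receptors 2 were higher and 4 lower. In muscle 3 of 13 glycoproteins were higher and 7 lower, and 2 of 10 regulators were higher and 6 lower. These lists were chosen with earlier results known, and the shares of all probe sets called in each tissue, given above, apply to them too.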
